A study of Arabidopsis thaliana with 8 samples.

Results

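NAC proteins are plant transcription factors that share a DNA-binding domain at the amino end. A subset carries a hydrophobic stretch near the carboxyl end that holds the protein in a membrane, often of the endoplasmic reticulum, until a protease frees it to enter the nucleus. ANAC013 and ANAC017 are known as carriers of stress signals from the mitochondria, ANAC053 and ANAC078 as activators of proteasome genes, and NTL8 as a link between salt and gibberellin in germinating seeds. The 9 membrane-bound NAC genes described here, of 33279 genes in the table, were taken by their locus identifiers: ANAC013 (AT1G32870), ANAC016 (AT1G34180), ANAC017 (AT1G34190), NTL8 (AT2G27300), ANAC053 (AT3G10500), ANAC078 (AT5G04410), NTL6 (AT3G49530), NTL9 (AT4G35580) and NTM1 (AT4G01540). The family was chosen by measured values, the FPKM of these same 8 libraries, and which comparison prompted the choice is not recorded. The members' values are therefore a description, and the tests below, fitted over all genes, are not independent evidence about the family.

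RNA was sequenced from whole Arabidopsis thaliana seeds imbibed for 24 h, either of the Columbia wild type (Col-0) or of serk1-1, a line in the same ecotype named after the receptor kinase gene SERK1. Seeds lay in liquid Murashige and Skoog medium, unsalted or salted with NaCl at 200 mM, and each of the 4 groups had 2 libraries. The labels name the libraries of a group biological replicates without saying that they came from separate seed lots, so the p-values cover only the scatter of these libraries, which may be technical. Titles of the serk1-1 samples also say wild type, so their genotype follows the separate genotype label. What the allele is and where it lies was not stated in the labels.

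Values are FPKM, a fragment count scaled to transcript length and library size. They hold no counts, the sequencing depth is unknown, and no counting error can be given. Totals ran from 777936 to 901215 per library, and 18571 to 20648 genes were above 0. SERK1 itself stood between 1.06 and 2.7 FPKM in the 4 Col-0 libraries and between 1.05 and 1.53 FPKM in the 4 serk1-1 libraries, so the genotypes overlapped over all libraries, although in the unsalted medium both serk1-1 libraries were lower, and its level does not check the labels. The seed markers CRA1, CRC, SESA3, OLEO1 and EM6 were present in all 8 libraries and none was at 0. Their sum was 0.65% to 1.97% of all FPKM in Col-0 and 3.11% to 6.44% in serk1-1, and all 5 were higher in both serk1-1 libraries than in both Col-0 libraries in each medium.

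The membrane anchor was looked for in the coding sequences of the RefSeq annotation of TAIR10.1, matched by locus for 9 of 9 members. The most hydrophobic run of 19 codons within the last 100 codons reached a mean Kyte-Doolittle hydropathy of 1.6 or more, a usual mark of a membrane span, in at least 1 annotated protein of all 9 members, against 17% of all 27403 protein-coding genes and 7 of 92 other genes with a NAC name. Of the annotated proteins it was found in 1 of 3 for NTL9, 1 of 2 for NTL6, 2 of 4 for ANAC016 and 3 of 4 for NTM1. Gene-level FPKM of these 4 may therefore also count transcripts of forms without it. The stretches of 4 members are shown because their genes differed most between the genotypes or, for ANAC078, because the gene is the close relative of one that did. Capitals mark the 19 codons of the stretch, and the 3 codons on either side are in lower case, on the coding strand.
ANAC013, codons 534 to 552 of 564: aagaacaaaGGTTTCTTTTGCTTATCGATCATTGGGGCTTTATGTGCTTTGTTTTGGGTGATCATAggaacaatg
NTL8, codons 314 to 332 of 335: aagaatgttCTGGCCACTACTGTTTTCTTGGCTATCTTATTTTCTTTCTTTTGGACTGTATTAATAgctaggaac
ANAC053, codons 522 to 540 of 549: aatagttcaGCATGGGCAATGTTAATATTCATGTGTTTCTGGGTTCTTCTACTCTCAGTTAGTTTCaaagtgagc
ANAC078, codons 543 to 561 of 567: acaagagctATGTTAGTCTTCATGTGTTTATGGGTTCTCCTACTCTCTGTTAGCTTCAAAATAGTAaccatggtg
The stretch of NTL8 ends 3 codons before the end of the protein and that of ANAC013 ends 12 before it. In TAIR10.1, ANAC013 lies at chr1:11911631-11913947 on the plus strand, NTL8 at chr2:11680276-11681971 on the minus strand, ANAC053 at chr3:3271217-3274176 on the plus strand and ANAC078 at chr5:1243684-1246684 on the plus strand. Between members, the proteins of ANAC016 and ANAC017, neighbours on chromosome 1, were identical at 76.3% of aligned residues and those of ANAC053 and ANAC078 at 72.9%. The labels do not say how the authors counted reads that match several loci, so FPKM within these pairs are less certain.

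All 9 genes gave values above 0 in every library, and their levels covered a wide range. In unsalted Col-0 the mean FPKM was highest for ANAC013 (95.2), followed by ANAC078 (87.0), ANAC053 (66.3), ANAC017 (49.0), NTL8 (45.4), NTL9 (22.8), NTL6 (17.8), ANAC016 (7.02) and NTM1 (0.815). Of the neighbours in that order, ANAC017 and NTL8 overlapped between libraries, as did NTL9 and NTL6. In unsalted serk1-1 the order was ANAC078 (55.6), ANAC017 (41.1), ANAC013 (37.0), NTL9 (21.4), ANAC053 (17.0), NTL6 (10.6), NTL8 (5.14), ANAC016 (4.67) and NTM1 (0.215). There ANAC078 and ANAC017 overlapped, as did ANAC017 and ANAC013, and NTL8 and ANAC016. ANAC013, ANAC053 and NTL8 each stood 2 places further down the order than in Col-0. NTM1, known for a role in cell division, reached 1 FPKM in 1 library only, did not meet the filter of 1 FPKM in 2 libraries and was not tested.

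**Figure D1:**
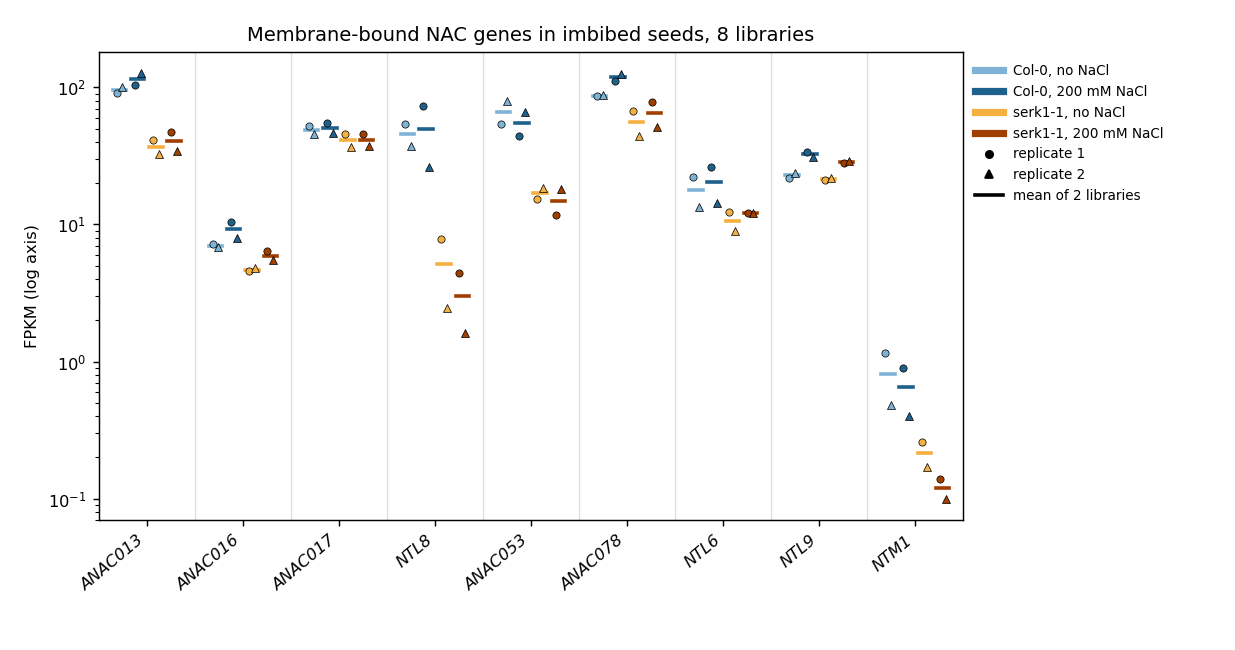
FPKM of the 9 membrane-bound NAC genes on a log axis, with 1 point per library (circles replicate 1, triangles replicate 2), a bar for the mean of 2 libraries and a colour for each group. NTL8 spans 1.61 to 73.2 FPKM and ANAC017 only 36.7 to 55.1 FPKM.

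The first question is what differs between the genotypes when the medium is the same. Transcripts of NTL8, ANAC053 and ANAC013 were lower in serk1-1 in both media, by the largest amount for NTL8, whose mean in serk1-1 was 0.113 times that in unsalted Col-0 and 0.0605 times with NaCl. The other 5 members tested did not pass the test. Changes are differences of group means of log2(FPKM + 1) ± SE (n = 2 libraries per group), which understate the change of low genes, tested with limma over 15336 genes, with a threshold of 0.05 on the Benjamini-Hochberg adjusted p. Of all genes tested, 11.1% were called without NaCl (6% higher, 5.07% lower) and 6.27% with NaCl (2.13% higher, 4.14% lower), against 3 of 8 members in each medium, all lower. Since the choice of members was made with these values known, the shares are given only side by side.

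NTL8 encodes a small factor that is induced by salt and delays germination by lowering gibberellin responses. It stood at 53.6 and 37.2 FPKM in unsalted Col-0, at 73.2 and 26.2 FPKM in salted Col-0, at 7.83 and 2.45 FPKM in unsalted serk1-1 and at 4.4 and 1.61 FPKM in salted serk1-1. Every Col-0 library was above every serk1-1 library, and replicate 2 was below replicate 1 in all 4 groups. The difference was -3.05 ± 0.62 without NaCl and -3.58 ± 0.62 with NaCl (limma adjusted p = 0.0269 and 0.0282).

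ANAC053 (also NTL4) is known for promoting reactive oxygen production under drought and heat and, with ANAC078, for activating proteasome genes. Its FPKM were 53.6 and 79.1 in unsalted Col-0, 44.3 and 65.6 in salted Col-0, 15.4 and 18.6 in unsalted serk1-1 and 11.7 and 18.2 in salted serk1-1. The genotypes did not overlap, and here replicate 2 was above replicate 1 in all 4 groups, the opposite of NTL8. The difference was -1.89 ± 0.31 without NaCl and -1.81 ± 0.31 with NaCl (limma adjusted p = 0.0157 and 0.0266).

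ANAC013 binds the promoters of genes that respond to mitochondrial dysfunction, its own included. It stood at 90.6 and 99.8 FPKM in unsalted Col-0, at 105 and 127 FPKM with NaCl, at 41.4 and 32.5 FPKM in unsalted serk1-1 and at 47.0 and 34.3 FPKM with NaCl. Every serk1-1 library was below every Col-0 library. The mean in serk1-1 was 0.388 times that in unsalted Col-0 and 0.351 times with NaCl, a difference of -1.35 ± 0.23 and -1.50 ± 0.23 (limma adjusted p = 0.0164 and 0.0207).

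The calls of these 3 genes did not hold in every omission of 1 library. Calls over all genes also fell far in some omissions. Leaving out 1 library of a compared group left 1 library there, which is then assumed to vary like the other groups. A call in such a fit rests on that assumption, so only the sizes of the differences are given. Over these omissions the difference stayed between -3.73 and -2.37 (NTL8), -2.16 and -1.61 (ANAC053) and -1.52 and -1.18 (ANAC013) without NaCl, and between -4.30 and -2.85, -2.11 and -1.51, and -1.72 and -1.28 with NaCl. After median-of-ratios scaling of the FPKM, ANAC013 and ANAC053 were no longer called with NaCl (-1.21 and -1.54, adjusted p = 0.0503 and 0.0786), while all 3 were called without NaCl. Without the filter on low values, NTL8 was called in neither medium (adjusted p = 0.0620 and 0.0582) and ANAC053 not with NaCl (0.0501).

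ANAC078, the relative of ANAC053, stood at 86.2 and 87.8 FPKM in unsalted Col-0 and at 67.2 and 44.0 FPKM in serk1-1, and at 111 and 126 against 78.0 and 51.0 FPKM with NaCl. Its difference was -0.67 ± 0.27 and -0.90 ± 0.27 (limma adjusted p = 0.147 and 0.0858). NTL6, which is freed from the membrane by cold and acts in pathogen defence, stood at 22.2 and 13.5 FPKM against 12.3 and 8.9 FPKM without NaCl and at 26.3 and 14.4 against 12.2 and 12.2 FPKM with NaCl. Its difference was -0.67 ± 0.35 and -0.64 ± 0.35 (limma adjusted p = 0.233 and 0.268). For both genes the genotypes did not overlap in either medium. The 95% intervals of ANAC078 lay below 0 (-1.31 to -0.03 and -1.53 to -0.26), without passing the adjustment over all genes, and those of NTL6 included 0.

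ANAC016, a promoter of leaf senescence, stood at 7.18 and 6.86 FPKM against 4.56 and 4.78 FPKM without NaCl and at 10.49 and 7.96 against 6.35 and 5.51 FPKM with NaCl (-0.50 ± 0.23 and -0.55 ± 0.23, limma adjusted p = 0.192 and 0.171). Its 95% interval included 0 without NaCl (-1.04 to 0.04). With NaCl it lay below 0 (-1.09 to -0.01), without passing the adjustment over all genes. ANAC017, which relays mitochondrial stress and lies next to ANAC016, stood at 52.2 and 45.9 FPKM against 45.5 and 36.7 FPKM without NaCl and at 55.1 and 46.1 against 45.4 and 37.5 FPKM with NaCl. Its difference was -0.25 ± 0.20 and -0.28 ± 0.20 (limma adjusted p = 0.439 and 0.390), and its 95% interval with NaCl ran from -0.76 to 0.19. NTL9, a calmodulin-binding member active in defence and guard cells, had the smallest differences, -0.09 ± 0.17 and -0.18 ± 0.17 (limma adjusted p = 0.763 and 0.515). NTM1 stood at 1.15 and 0.48 FPKM against 0.26 and 0.17 FPKM without NaCl and at 0.9 and 0.4 against 0.14 and 0.1 FPKM with NaCl, again without overlap, at levels too low for a test.

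All 8 members tested were lower in both serk1-1 libraries than in both Col-0 libraries in each medium, where 34.9% (no NaCl) and 36.8% (NaCl) of all genes tested were so placed and 25.6% and 19.1% were placed the other way. The median difference of the 8 was -0.67 and -0.77, and that of all genes tested was -0.14 and -0.24. Part of this placement went with the scale of the libraries. After median-of-ratios scaling, which brought the median of all genes to -0.01 and 0.00, the members' median was -0.52 and -0.49, 7 and 6 members were placed below both Col-0 libraries of their medium (30.1% and 27.7% of all genes under that scaling), NTL9 turned positive in both media (0.06 and 0.10) and ANAC017 stood at 0.00 with NaCl. NTL9 was also positive after quantile normalization (0.03 and 0.04). Storage and late embryo transcripts took a larger share of the FPKM in serk1-1, as given above for the 5 seed markers. The endosperm gene EPR1 was higher as well (212 and 177 FPKM in Col-0 and 1786 and 1355 FPKM in unsalted serk1-1), while the endosperm mannanase gene MAN7 was not called (39.7 and 35.0 against 29.7 and 29.6 FPKM). The part of these shifts in the differences of the NAC genes was not tested, and in whole seeds fewer cells of a type and less RNA per cell cannot be told apart.

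**Figure D2:**
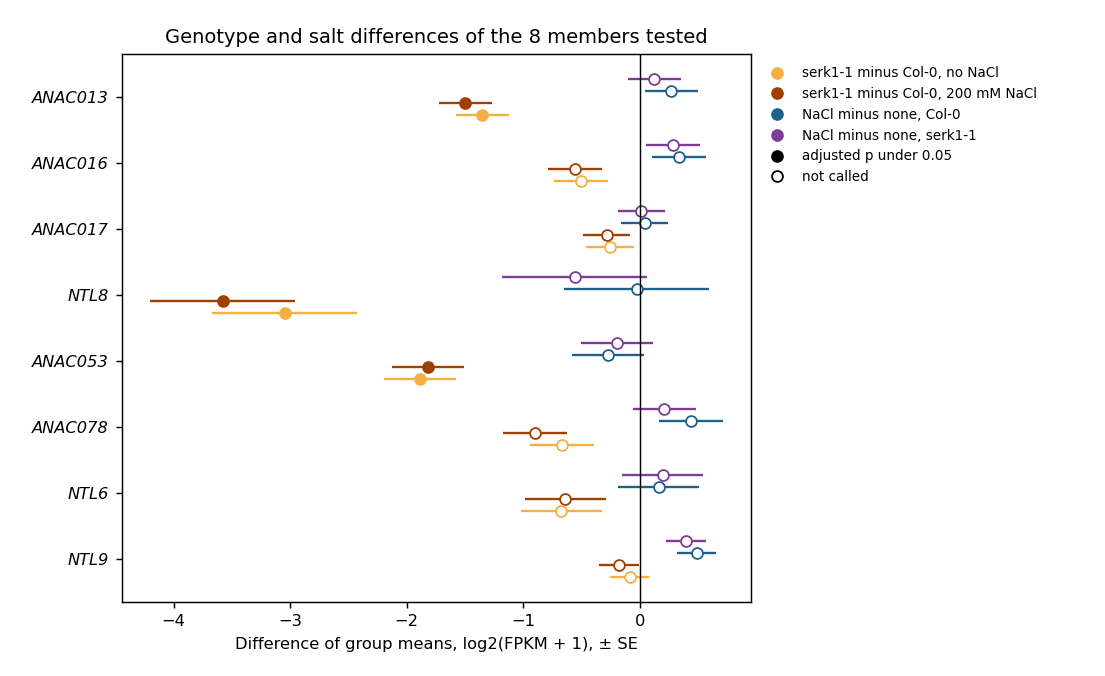
Differences of group means on the log2(FPKM + 1) scale ± SE for the 8 members tested, with the genotype comparisons in orange and brown and the salt comparisons in blue and purple. Filled points passed an adjusted p of 0.05: they are the genotype differences of NTL8, ANAC053 and ANAC013 in both media, and no salt difference.

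The salt comparison asks whether a day in 200 mM NaCl moved the same genes. With limma, 0 of 8 members were called in Col-0 and 0 in serk1-1, with 1 member, NTL9, at an unadjusted p under 0.05 in each genotype. Over all genes, 0.0456% were called in Col-0 (0.0326% higher, 0.013% lower) and 0% in serk1-1. The members' differences with NaCl ran from -0.27 to 0.49 in Col-0 (median 0.22; all genes tested 0.05) and from -0.56 to 0.40 in serk1-1 (median 0.16; all genes tested -0.06).

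NTL9 stood at 21.9 and 23.7 FPKM in unsalted Col-0 and at 33.9 and 31.0 FPKM with it, and at 21.0 and 21.8 against 27.8 and 29.2 FPKM in serk1-1. The media did not overlap in either genotype. The difference was 0.49 ± 0.17 in Col-0 and 0.40 ± 0.17 in serk1-1 (limma adjusted p = 0.341 and 1). ANAC016 was also higher in both NaCl libraries of each genotype (0.34 ± 0.23 and 0.29 ± 0.23). ANAC013 and ANAC078 were so placed in Col-0 (0.27 ± 0.23 and 0.44 ± 0.27) and overlapped in serk1-1. That made 4 of 8 members in Col-0 and 2 of 8 in serk1-1, where 19.7% and 13.7% of all genes tested had both NaCl libraries higher and 16.2% and 21.4% had both lower.

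NTL8, known from seedlings and seeds as induced by salt, overlapped between the media in both genotypes. Its salt difference was -0.02 ± 0.62 in Col-0, with a 95% interval from -1.48 to 1.43, and -0.56 ± 0.62 in serk1-1, with an interval from -2.01 to 0.90. Such wide intervals leave room for a change of more than 1 log2 unit in either direction in Col-0. ANAC017 had the narrower interval of -0.43 to 0.52 in Col-0. For the difference between the salt effects of the genotypes, limma called 0 of 8 members and 0 of all genes (0%), with 0 members at an unadjusted p under 0.05. The members' values ran from -0.53 (NTL8) to 0.07 (ANAC053).

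Genes induced by mitochondrial dysfunction are the best known targets of ANAC013 and ANAC017, and 15 of them were listed. Of these, 11 were tested and 4 were lower in serk1-1 in each medium (AOX1A, UPOX, UGT74E2 and CYP81D8), 0 were higher and 7 were not called. Of all genes tested, 5.07% and 4.14% were called lower. This list was also chosen with earlier results of these data known, so the shares are given only side by side. The median of the 11 was -1.34 without NaCl and -1.73 with NaCl, against -0.14 and -0.24 over all genes tested. OM66, a mitochondrial outer membrane protein, did not exceed 0.4 FPKM in any library and was not tested, and AT12CYS-2, NDB4 and TIM17-1 also missed the filter.

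UPOX, a small mitochondrial protein upregulated by oxidative stress, stood at 80.5 and 49.4 FPKM in unsalted Col-0, 114 and 33.3 with NaCl, 11.6 and 4.04 in unsalted serk1-1 and 7.03 and 2.76 with NaCl. The genotypes did not overlap (-3.01 ± 0.68 and -3.51 ± 0.68, limma adjusted p = 0.0345 and 0.0339). AOX1A, the alternative oxidase that bypasses part of the respiratory chain, stood at 20.2 and 10.3, 58.1 and 18.4, 2.42 and 0.85, and 1.79 and 3.79 FPKM in the same order of groups (-2.62 ± 0.60 and -3.21 ± 0.60, limma adjusted p = 0.0360 and 0.0320). UGT74E2, an enzyme that attaches glucose to the auxin indole-3-butyric acid, had -2.12 ± 0.34 and -2.69 ± 0.34 (limma adjusted p = 0.0144 and 0.0149), with 98.6 and 129 FPKM in Col-0 against 32.9 and 19.3 FPKM in unsalted serk1-1. It was higher in both NaCl libraries than in both libraries without NaCl in each genotype, reaching 355 and 283 FPKM in Col-0 and 62.4 and 37.2 FPKM in serk1-1. That salt difference did not pass the test (1.48 ± 0.34 in Col-0, limma adjusted p = 0.169). CYP81D8, a cytochrome P450, was also lower in serk1-1, at -1.34 ± 0.23 and -1.28 ± 0.23. It had the largest salt differences of the list, from 13.1 and 11.7 to 44.7 and 36.2 FPKM in Col-0 and from 5.01 and 3.66 to 17.3 and 14.8 FPKM in serk1-1. The media did not overlap, and the differences did not pass the test (1.62 ± 0.23 and 1.69 ± 0.23, limma adjusted p = 0.0861 and 0.436). After median-of-ratios scaling or quantile normalization, 1 gene of the list was called for salt in Col-0.

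RCD1, a nuclear protein that binds ANAC013 and ANAC017 and holds their activity down, was itself lower in salted serk1-1. It stood at 186 and 118 FPKM in Col-0 and 74.7 and 72.3 FPKM in unsalted serk1-1, and at 325 and 187 against 98.1 and 83.3 FPKM with NaCl. The difference was -1.0 ± 0.32 without NaCl, which did not pass, and -1.44 ± 0.32 with NaCl, which did (limma adjusted p = 0.0810 and 0.0439). Its relative SRO1 overlapped between the genotypes in both media (-0.27 ± 0.49 and -0.66 ± 0.49).

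**Figure D3:**
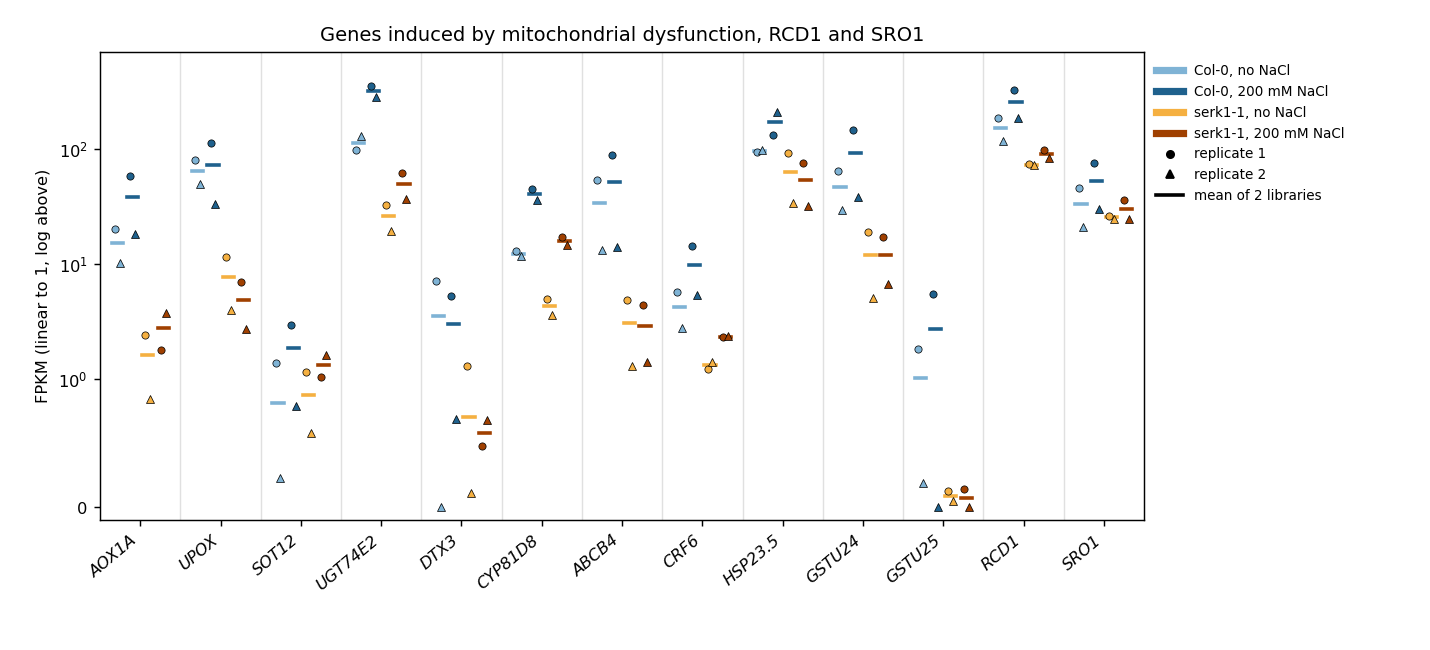
FPKM of the 11 tested genes of the mitochondrial dysfunction list and of RCD1 and SRO1 in every library, on an axis that is linear up to 1 and logarithmic above. The serk1-1 points of UPOX, AOX1A, UGT74E2 and CYP81D8 lie below the Col-0 points of the same medium, and SRO1 overlaps.

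Promoters were searched for the mitochondrial dysfunction motif that ANAC013 and ANAC017 bind, spelled as CTTG, then 5 bases of any kind, then CAAG or CACG, on both strands of the 500 bases before the annotated gene start. It was present in 5 of 15 genes of the list (33.3%), against 2.09% of 27443 promoters, and in 1 of 9 members, ANAC017. The list holds known targets of these factors, so its higher share was built in and is no test of them. A match is a description of letters and not of binding. DTX3, CRF6 and HSP23.5 also held the motif and were called in neither medium. Their limma adjusted p was 0.611, 0.147 and 0.369 without NaCl and 0.510, 0.0780 and 0.0898 with NaCl. The matches of UPOX, CYP81D8 and ANAC017 are shown because the first 2 genes were lower together with ANAC013 and the third is a family member. Capitals mark the motif, whose coordinates in TAIR10.1 are given, and the sequence is that of the gene's strand.
UPOX, chr2:9254327-9254339, plus strand: tttagtaaCTTGCTCTCCAAGgagatcta
CYP81D8, chr4:17571871-17571883, minus strand: caaactttCTTGAGGAACAAGacttgact
ANAC017, chr1:12451295-12451307, plus strand: acctctgtCGTGTCAGACAAGaatgttgg
The match of UPOX begins 51 bases before the gene start, that of CYP81D8 140 and that of ANAC017 110, where the motif reads in reverse. The match of CYP81D8 lies inside the annotated neighbour AT4G37380. AOX1A and UGT74E2 had no such letters in this window.

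Proteasome subunits are the genes that ANAC053 and ANAC078 are known to activate. Of 30 subunit genes, all tested, 15 were called lower in serk1-1 without NaCl and 14 with NaCl, against 5.07% and 4.14% of all genes, and 0 were called higher. The subunit list was chosen with earlier results of these data known, so these shares are no independent evidence. All 30 had both serk1-1 libraries below both Col-0 libraries in each medium, a placement held by 34.9% and 36.8% of all genes. The median was -1.58 and -1.63, the smallest difference was that of PBD1 without NaCl (-0.55) and of RPN9A with NaCl (-0.41). Their summed FPKM were 13885 and 9797 in Col-0 and 4977 and 3341 in unsalted serk1-1, and 15959 and 8328 against 4391 and 3220 with NaCl. Replicate 2 had the lower sum in all 4 groups, as NTL8 did and ANAC053 did not.

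The largest called differences without NaCl were those of PAE1 (-2.31 ± 0.51), PBG1 (-2.27 ± 0.45), PBB1 (-2.13 ± 0.43) and RPT3 (-1.90 ± 0.36), with limma adjusted p of 0.0332, 0.0252, 0.0257 and 0.0237. PAE1, PBG1 and PBB1 belong to the core particle, which cuts proteins, and RPT3 is an ATPase of the regulatory particle, which unfolds them. RPT3 stood at 646 and 481 FPKM in Col-0 and 189 and 117 FPKM in unsalted serk1-1, and at 1053 and 612 against 187 and 133 FPKM with NaCl. With NaCl the largest called differences were PAE1 (-2.39 ± 0.51), PBB1 (-2.36 ± 0.43), RPT3 (-2.34 ± 0.36) and PBG1 (-2.23 ± 0.45). Salt moved 0 of the 30 past the test in either genotype, with 0 at an unadjusted p under 0.05. The calls of subunits did not hold when some single libraries of a compared group were left out. Calls over all genes also fell far in some omissions. The counts of 15 and 14 were 25 and 19 after median-of-ratios scaling.

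The letters TGGGC, known as the core of an element of proteasome promoters bound by ANAC053 and ANAC078, were in 18 of 30 subunit promoters (60%), searched on both strands of 500 bases, against 32.8% of all promoters, and in 4 of 9 members. This short motif is also contained in the site II element of many housekeeping genes. As the element is one of proteasome promoters, the higher share is no test of these factors. A match of PBB1 and of RPT3 is shown, since both genes were among the largest differences in both media.
PBB1, chr3:10152348-10152352, plus strand: atacttatTGGGCctaagaag
RPT3, chr5:23568978-23568982, plus strand: atcaaaacTGGGCcttactat
They begin 110 and 74 bases before the gene start.

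**Figure D4:**
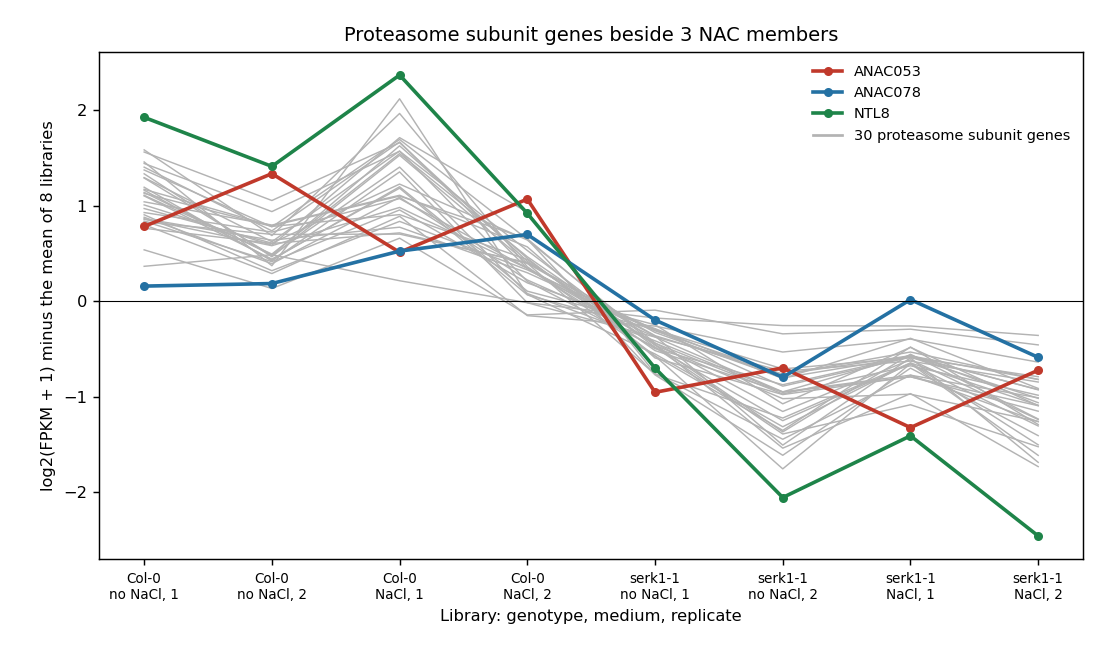
Level of 30 proteasome subunit genes (grey) and of ANAC053, ANAC078 and NTL8 in each of the 8 libraries, as log2(FPKM + 1) minus the mean of that gene over the libraries. All lines lie lower in the 4 serk1-1 libraries than in the Col-0 libraries of the same medium, and ANAC053 is higher in replicate 2 of every group, where NTL8 and most subunits are lower.

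Other reported targets of single members were mostly weak in seeds: of 16 listed, 6 met the filter. NYE1, a gene of chlorophyll breakdown that ANAC016 activates in leaves, was the only one called, higher in unsalted serk1-1 (12.03 and 9.69 against 28.3 and 38.2 FPKM, 1.52 ± 0.31, limma adjusted p = 0.0277). With NaCl it had 0.86 ± 0.31 (limma adjusted p = 0.131), and the largest value there was that of NAP, a senescence factor, at -1.55 ± 0.73 (limma adjusted p = 0.211). GA3OX1, the gibberellin synthesis gene that NTL8 is known to lower in salt, stood at 4.4 and 1.73 FPKM in Col-0 and 1.02 and 0.69 FPKM in unsalted serk1-1 (-1.06 ± 0.44, limma adjusted p = 0.156). With NaCl it stood at 1.74 and 0.38 against 0.24 and 0.21 FPKM (-0.67 ± 0.44, limma adjusted p = 0.355). Its salt differences, -0.98 ± 0.44 in Col-0 and -0.59 ± 0.44 in serk1-1, did not pass the test. The oxidase genes RBOHA and RBOHC, targets of ANAC053 in leaves, did not exceed 0.03 FPKM, while RBOHE, a further oxidase gene of that list, stood between 0.97 and 3.24 FPKM and overlapped between the genotypes (-0.14 ± 0.43 and -0.02 ± 0.43). The defence genes PR1, PR2 and PR5 did not exceed 0.16 FPKM.

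Of 4 further membrane-bound NAC genes, 0 were called in any comparison by limma, with 1 at an unadjusted p under 0.05 for salt in Col-0 (ANAC014) and 0 in the other comparisons. ANAC089, a regulator of fructose responses, and ANAC060, which dampens sugar and ABA responses in seedlings, lay higher in serk1-1 than in Col-0, without overlap in either medium. ANAC089 stood at 139 and 163 FPKM in Col-0 and at 169 and 232 FPKM in unsalted serk1-1 (0.39 ± 0.24, limma adjusted p = 0.314), and ANAC060 at 66.9 and 79.4 against 86.9 and 125 FPKM (0.51 ± 0.24, limma adjusted p = 0.19). Their level per length was above that of every member in unsalted serk1-1. ANAC014 overlapped between the genotypes in both media (-0.02 ± 0.26 and 0.37 ± 0.26). ANAC069 overlapped without NaCl (-0.14 ± 0.37) and was lower in both serk1-1 libraries with NaCl (-0.59 ± 0.37). Of the rhomboid-like genes, whose product RBL2 has been tied to the release of ANAC013 from the membrane, RBL2 stood at 29.2 and 20.7 FPKM in Col-0 and 42.1 and 47.8 FPKM in unsalted serk1-1 (0.84 ± 0.23, limma adjusted p = 0.0560). RBL3 stood at 7.38 and 8.63 against 3.99 and 4.13 FPKM (-0.83 ± 0.22, limma adjusted p = 0.0519), and RBL1 did not exceed 0.38 FPKM and was not tested. With NaCl the differences of RBL2 and RBL3 were smaller, 0.51 ± 0.23 and -0.49 ± 0.22 (limma adjusted p = 0.194 and 0.191).

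The genes most like the 3 members with the widest range were ranked by Pearson's r of log2(FPKM + 1) over the 8 libraries, among the 10706 other genes whose mean reached 5 FPKM. The libraries come from Col-0 and serk1-1, so a high r may mostly restate the genotype difference. Replicate differences shared between groups also enter r, and it is given as a description. For NTL8 they were UPOX (r = 0.999), MSI1, a histone chaperone subunit (0.998), and the proteasome subunits PBB1 (0.997), PAE1 (0.996) and RPN11 (0.995). For ANAC053 they included AT2G45460 (0.996), APC8, a subunit of the anaphase-promoting complex (0.994), AT1G30470 (0.992) and AT3G58270 (0.990). For ANAC013 they were CP1 (0.996), MC4, a metacaspase (0.995), AT3G48070 (0.994), ATAF2, a NAC factor without a membrane anchor (0.993), and LFR (0.992). None of these genes was itself a member.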

How the data were processed

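The deposited values are FPKM per gene, made by the authors with FastQC 0.10.1, TopHat2 and Cufflinks 2.1.1 on TAIR10, per the submitters' processing notes. For TopHat2's version, the annotation, the strand setting and reads with several matches, the sources used here give nothing. Without strand, reads of overlapping or antisense genes cannot be told apart, and an abundant transcript class lowers the FPKM of the rest. Low values (0.3 to 2 FPKM, windows of 0.015 on the log2 ratio, 28 pairs of libraries) showed no step of whole fragments: no window held over 2.94% of ratios.

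All columns were mapped to samples by name. The 15336 genes that reached 1 FPKM in 2 or more libraries were fitted as 4 group means of log2(FPKM + 1) with limma 3.58.1 in R 4.3.3, with a mean-variance trend (4 residual and 3.48 prior degrees of freedom), 5 comparisons, two-sided tests and Benjamini-Hochberg adjustment over all genes; intervals are 95%. The code was tested on simulated data. Sequences came from RefSeq TAIR10.1 by locus tag with Biopython 1.88 in Python 3.11.15; figures used matplotlib 3.10.9. Of 33279 genes, 32815 had a RefSeq name; the deposited table holds no coordinates.

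Members, lists and tests were chosen with earlier results of these data known. Named genes were all members, 5 fixed genes (AOX1A, UPOX, OM66, RCD1, SRO1), per list and comparison up to 4 called genes with the largest change (otherwise 2 with the largest change, where described), and 5 genes most like each of 3 members (1 of them is not reported here); AT12CYS-2, NDB4, TIM17-1 and the genes given for their low level, for their part in a member's pathway or as the smallest of a list were named after their values were seen. Alternatives covered the pseudocount, the filter, scaling, the trend, each library left out and a block for the replicate number; scaling together with the block, and the counts of proteasome and mitochondrial dysfunction genes under every alternative, were added after seeing the data.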

Additional observations from a re-analysis of the deposited data

How the results depend on the processing

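The count of 3 members called in each genotype comparison held with a pseudocount of 0.1, a mean of at least 5 FPKM, quantile normalization and no trend. Without a filter on low values it was 2 without NaCl and 1 with NaCl, and NTL8 was called in neither. After median-of-ratios scaling it was 1 with NaCl. Leaving out 1 library at a time lost all member calls in some omissions, and calls over all genes fell in some omissions as well, as given below. The labels tie no batch to the replicate numbers; replicate differences correlated between groups with r from 0.397 to 0.72 across genes. With the replicate number as a block, 6 members were called in each medium (also ANAC016, ANAC078 and NTL6). Over all 15336 genes, 6153 (no NaCl) and 5869 (NaCl) were then called. Scaling and block together called 3 members in each medium, and 6038 and 5326 of all genes. Members' counts of 0 for salt, and for its difference between genotypes, held in all these settings.

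Over all genes, 1697 (no NaCl) and 962 (NaCl) genes were called for genotype, 1037 and 469 without a filter, 1920 and 1208 at a mean of 5 FPKM, 2442 and 1516 with quantile normalization, 1943 and 972 with median-of-ratios scaling, 6153 and 5869 with the block, and 13 to 1935 and 2 to 709 with 1 library left out. Of those called with NaCl, 66% were lower, and 50.4% after median-of-ratios scaling. For salt in Col-0, 7 genes became 2 with a pseudocount of 0.1, 0 at a mean of 5 FPKM, 24 and 14 after the 2 scalings, 3 without the trend, 1101 with the block and 0 to 36 with 1 library left out. For salt in serk1-1, 0 became at most 12, with the block. Called proteasome subunits (15 and 14) ran from 7 and 4 without a filter to 30 and 30 with the block, and mitochondrial dysfunction genes (4 and 4) from 2 and 2 to 7 and 8; both fell to 0 in some omissions and reached at most 27 and 23, and 4 and 7, in others. For salt in Col-0, mitochondrial dysfunction genes went from 0 to 1 with either scaling and 2 with the block. No called member changed sign. With 2 libraries per group and no known depth, smaller differences could not be resolved.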

Other observations

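For some members, replicates of a group differed in a way that repeated across groups, in opposite directions for NTL8 and ANAC053. On the log2(FPKM + 1) scale, replicate 2 minus replicate 1 of NTL8 was -0.51 in Col-0 without NaCl, -1.45 in Col-0 with NaCl, -1.36 in serk1-1 without NaCl and -1.05 in serk1-1 with NaCl. For ANAC053 the same differences were 0.55, 0.56, 0.26 and 0.60. ANAC017 was lower in replicate 2 in all 4 groups (-0.30 to -0.18), and ANAC013 was higher in replicate 2 in both Col-0 groups (0.14 and 0.27) and lower in both serk1-1 groups (-0.34 and -0.44). The differences of ANAC078, ANAC016 and NTL9 also changed sign between groups. The summed seed markers were higher in replicate 2 of every group (from 0.65% to 1.18%, 0.89% to 1.97%, 3.11% to 5.13% and 3.98% to 6.44% of all FPKM, in the order of groups given for NTL8). Between genotypes, in contrast, NTL8 and ANAC053 were both lower where the seed markers were higher.

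Among the members, r of log2(FPKM + 1) over the 8 libraries, given as a description of libraries from 2 genotypes, was highest between ANAC013 and ANAC078 (0.932) and between ANAC013 and NTL8 (0.921). The neighbouring relatives ANAC016 and ANAC017 had 0.764, the relatives ANAC053 and ANAC078 had 0.683, and NTL9 had 0.163 to 0.709 with the others.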
